A study of Mus musculus with 4 samples.

Results

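The anti-Rtl1 miRNAs are the 5 hairpins miR-431, miR-433, miR-127, miR-434 and miR-136 of the imprinted Dlk1-Dio3 locus, which are encoded antisense to the Rtl1 gene. Their 10 arms were taken by name from the deposited table, and the rows carrying each name were summed in each library. All 10 arms were present among 1029 miRNA names, with 1502 of the 85704 distinct sequences. The data are RISC-bound small RNAs (R-sRNAs) of the cortex and hippocampus of BL6 mice, which the methods of the study describe as male C57BL/6J animals, with 2 libraries at 2 months of age and 2 at 18 months. The small RNAs came down with Ago1 to Ago4 on a GW182 (T6B) peptide, so every level below is that of RNA held by Ago in a mix of brain cell types, in reads scaled to a common library total by the authors (CPM). In such tissue, fewer cells of a type and less miRNA per cell cannot be told apart. The labels do not say whether the 2 libraries of an age came from separate mice, so the p-values measure the spread between these libraries.

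A miRNA hairpin is cut by Drosha and Dicer into a duplex, and Ago keeps one strand, the 5p or the 3p arm, as guide. The guide finds targets mostly through its seed, positions 2 to 8 from its 5′ end, so a start moved by a single base gives the molecule another seed. Rtl1 is a retrotransposon-derived gene expressed from the paternal chromosome, whereas the miRNAs are made from the maternal one. Because they derive from the opposite strand of the Rtl1 coding sequence, they pair with the Rtl1 mRNA along their whole length and are known to direct its cleavage.

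The mature sequences in RefSeq (GRCm38.p6) are shown for all 10 arms, since arms, starts and seeds are compared throughout. Capitals mark positions 2 to 8, counted from the 5′ end, and the order is that of the plus strand of chromosome 12.
mmu-miR-431-5p: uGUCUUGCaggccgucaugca
mmu-miR-431-3p: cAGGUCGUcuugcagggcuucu
mmu-miR-433-5p: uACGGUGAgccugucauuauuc
mmu-miR-433-3p: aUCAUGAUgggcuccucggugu
mmu-miR-127-5p: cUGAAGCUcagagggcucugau
mmu-miR-127-3p: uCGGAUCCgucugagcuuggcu
mmu-miR-434-5p: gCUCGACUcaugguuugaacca
mmu-miR-434-3p: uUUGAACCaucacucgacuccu
mmu-miR-136-5p: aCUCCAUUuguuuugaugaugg
mmu-miR-136-3p: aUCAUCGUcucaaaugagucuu
No seed was shared between members, and none of the 10 was shared with another RefSeq mature miRNA of the mouse.

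On GRCm38 the hairpins lay at chr12:109590447-109590537 (miR-431), chr12:109591715-109591838 (miR-433), chr12:109592846-109592915 (miR-127), chr12:109594506-109594599 (miR-434) and chr12:109595327-109595388 (miR-136). They spanned 4942 nucleotides, and all 5 fell inside the single coding exon stretch of Rtl1, chr12:109590172-109595403 on the minus strand. Each of the 10 mature sequences had exactly 1 fully complementary site in the Rtl1 transcript. Because Rtl1 is read from the other strand, the order is inverted along its mRNA. The miR-136-3p site covered codons 6 to 13 and the miR-136-5p site codons 18 to 25, close to the start of the reading frame. The miR-434 sites covered codons 273 to 280 (3p) and 285 to 292 (5p). The miR-127 sites covered codons 832 to 839 (3p) and 843 to 850 (5p). The miR-433 sites followed at codons 1201 to 1208 (3p) and 1218 to 1225 (5p), and the miR-431 sites at codons 1627 to 1634 (3p) and 1642 to 1649 (5p) of 1744. The sites of the most abundant arm and of the arm that varied most between libraries are shown as they stand in the Rtl1 mRNA, 5′ to 3′.
Rtl1 site of mmu-miR-127-3p: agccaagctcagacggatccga
Rtl1 site of mmu-miR-136-5p: ccatcatcaaaacaaatggagt

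The libraries held 9067007 to 11388999 reads, and 96.6 to 96.7% of the CPM carried a miRNA name. The summed level of 3 neuronal miRNAs was 169190 to 195710 CPM and overlapped between the ages, as did the oligodendrocyte, leukocyte, red blood cell (2 of 3 members found) and muscle lists. The endothelial pair was lower at 18 months (5422 and 8990 CPM, against 11472 and 12243 CPM), and the 4 epithelial miRNAs were higher (56254 and 63040 CPM, against 26867 and 47147 CPM). The liver miRNA miR-122-5p was at a low level in all 4 libraries and lower at 18 months (5.01 and 6.07 CPM, against 6.48 and 7.11 CPM). The part of these shifts in the results was not tested. The 2 months libraries stood apart for 2 members. Replicate 2 held 4.11 times as much miR-136-5p as replicate 1, and replicate 1 held 2.23 times as much miR-431-3p as replicate 2. Differences in level and in 3p share that rest on such a library are given with and without it.

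The 10 arms together made up 26529 and 38317 CPM at 2 months against 23212 and 23914 CPM at 18 months, or 2.40 to 3.97% of all named miRNA reads. Without miR-136-5p the other 9 arms summed to 22471 and 21622 CPM at 2 months, against 20083 and 18930 CPM at 18 months. Both 18 months sums were below both 2 months sums with and without that arm. The difference in means was -8860 CPM for 10 arms, -2540 CPM for 9 arms and -2966 CPM for 10 arms without the 2 months replicate 2 library. No test was made of a sum over chosen members.

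The levels of the arms covered more than 2 orders of magnitude, and the plot of levels by library shows each value. miR-127-3p was the most abundant arm, with 10979 and 11379 CPM at 2 months against 9916 and 7866 CPM at 18 months, and it ranked 26 among all miRNAs by mean CPM. miR-136-5p held 4058 and 16695 CPM at 2 months against 3129 and 4984 CPM at 18 months. miR-434-3p held 6246 and 6129 CPM at 2 months against 5846 and 4866 CPM at 18 months. These 3 arms carried 74.1 to 89.3% of the reads of the group. The next arm was miR-136-3p, with 2112 and 1662 CPM at 2 months against 2186 and 3684 CPM at 18 months. miR-433-3p held 1381 and 956 CPM at 2 months against 849 and 868 CPM at 18 months. miR-434-5p held 990 and 878 CPM at 2 months against 695 and 1051 CPM at 18 months.

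The 4 remaining arms were guides of low abundance. miR-431-5p held 320 and 276 CPM at 2 months against 261 and 203 CPM at 18 months. miR-127-5p, the minor arm of the most abundant hairpin, held 294 and 246 CPM at 2 months against 226 and 275 CPM at 18 months. The lowest were miR-431-3p, with 95.4 and 42.7 CPM at 2 months against 52.5 and 53.7 CPM at 18 months, and miR-433-5p, with 52.4 and 52.8 CPM at 2 months against 51.0 and 64.4 CPM at 18 months. Even the arm with the fewest reads in any library rested on 486 reads. In this order the ranges of the 4 libraries overlapped between miR-127-3p and miR-136-5p, between miR-136-5p and miR-434-3p, between miR-433-3p and miR-434-5p, between miR-431-5p and miR-127-5p and between miR-431-3p and miR-433-5p. The other neighbours in the order did not overlap. Each read covers a whole small RNA, so no length scaling was applied. The cDNA was amplified by PCR, and the methods name neither molecular identifiers nor a calibrator of ligation between different sequences.

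**Figure D1:**
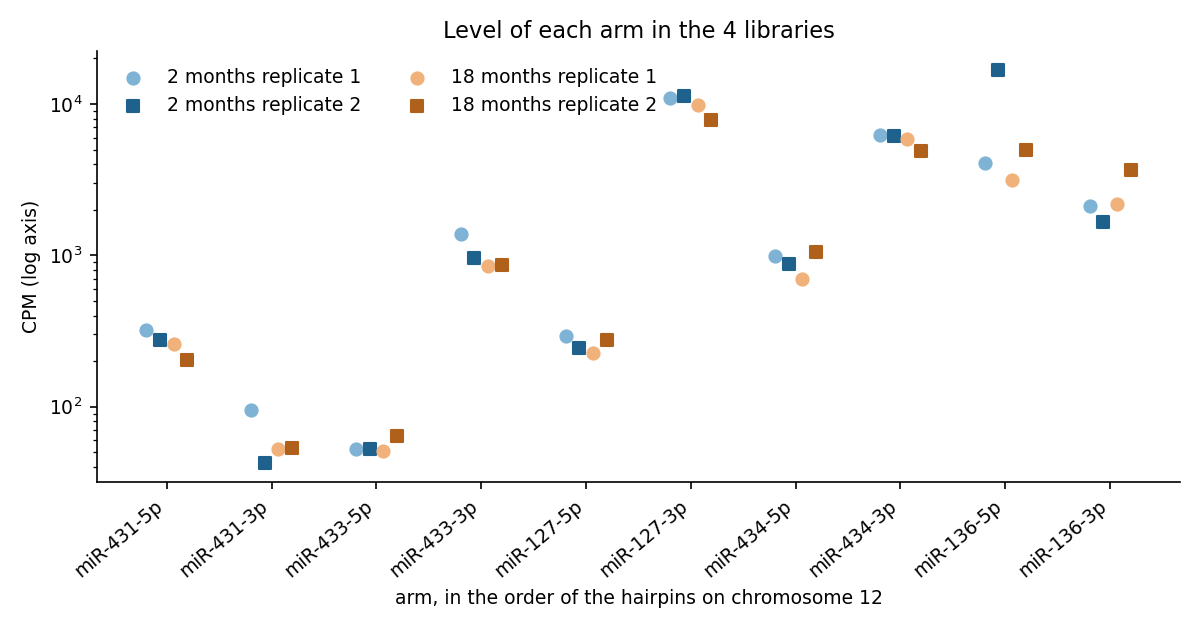
Level of each anti-Rtl1 arm in CPM (log axis), 1 point per library, blue for 2 months and orange for 18 months. Points of most arms lie close together, whereas the miR-136-5p point of 2 months replicate 2 (16695 CPM) stands above the other 3 (3129 to 4984 CPM).

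The comparison of 2-month-old with 18-month-old brains asked whether the miRNA content of the RISC shifts with age. None of the 10 arms passed an unadjusted p under 0.05 in limma on log2(CPM + 1), the threshold named in the methods of the study, while 16.2% of the 456 tested miRNAs did. None passed a Benjamini-Hochberg adjusted p under 0.05, which 0.219% of the tested miRNAs did. At the unadjusted threshold, on whole reads recovered from the table, edgeR (quasi-likelihood) called 1 arm and DESeq2 called 2, and neither called an arm after adjustment. The shares of all tested miRNAs that edgeR and DESeq2 called were not counted.

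The median log2 difference was -0.24 over the 10 arms and -0.22 over all tested miRNAs. Rescaling the libraries by the median of ratios moved the median of all miRNAs to -0.01, so differences are also given relative to the median of all. On the CPM scale 8 arms were below 0, or 80% of them, as were 68.4% of all tested miRNAs. After that rescaling, or in edgeR or DESeq2, miR-127-5p and miR-434-5p were above 0, and miR-434-3p was above 0 in edgeR and DESeq2.

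In 4 arms both 18 months values lay below both 2 months values, a pattern that 41.4% of the tested miRNAs showed. They were the 5p arm of miR-431 and the 3p arms of miR-433, miR-127 and miR-434, in each case the major arm of its hairpin. The log2 difference was -0.42 for miR-433-3p (SE 0.25, limma adjusted p = 0.425) and -0.37 for miR-431-5p (SE 0.23, limma adjusted p = 0.442). It was -0.34 for miR-127-3p (SE 0.22, limma adjusted p = 0.442) and -0.21 for miR-434-3p (SE 0.21, limma adjusted p = 0.582). Relative to the median of all miRNAs these 4 differences were -0.20, -0.14, -0.12 and 0.01. Single libraries moved each of them. Without the 2 months replicate 1 library, miR-433-3p differed by -0.16. Without the 2 months replicate 2 library, it differed by -0.69 at an unadjusted p of 0.0308 (limma adjusted p = 0.256, range 0.256 to 0.851 over all alternatives). Without the 18 months replicate 2 library, the differences were -0.18 for miR-431-5p, -0.17 for miR-127-3p and -0.08 for miR-434-3p. Without the 18 months replicate 1 library they were -0.55, -0.51 and -0.35. A fit that leaves out a library has a single library in one group, whose spread is taken to be that of the other group.

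miR-136-3p was the 1 arm with both 18 months values above both 2 months values, as were 12.1% of the tested miRNAs. Its log2 difference was 0.60 (SE 0.31, unadjusted p = 0.0953, limma adjusted p = 0.377), or 0.82 relative to the median of all. The unadjusted p was under 0.05 in 5 of 15 alternatives, among them rescaling by the median of ratios (log2 0.81), edgeR (log2 0.86) and DESeq2 (log2 0.85), and the adjusted p ranged from 0.141 to 0.777. Without the 18 months replicate 2 library, the highest of the 4, the difference was 0.22. Without the 18 months replicate 1 library it was 0.97, and without the 2 months replicate 2 library it was 0.43.

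Its partner miR-136-5p had the largest difference in the other direction, -1.06 on the log2 scale (SE 0.64, unadjusted p = 0.145, limma adjusted p = 0.437), with groups that overlapped. That value rested on 1 library. It was -0.04 without the 2 months replicate 2 library (limma adjusted p = 0.968) and -2.08 without the 2 months replicate 1 library (unadjusted p = 0.00097, limma adjusted p = 0.0632). Of the 456 tested miRNAs, 5 had a larger fold between the 2 months libraries than the 4.11 of miR-136-5p, and the median fold was 1.20. Between the 18 months libraries miR-136-5p differed by 1.59 times.

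The groups of the other 4 arms overlapped. The log2 differences were -0.26 for miR-431-3p, -0.13 for miR-434-5p, -0.11 for miR-127-5p and 0.12 for miR-433-5p, with SE of 0.22 to 0.39. For miR-431-3p, 1 library decided the direction. Without the 2 months replicate 1 library (95.4 CPM) the difference was 0.31, and without the 2 months replicate 2 library (42.7 CPM) it was -0.83 at an unadjusted p of 0.0376 (limma adjusted p = 0.280), a fit whose spread comes from the 18 months libraries (52.5 and 53.7 CPM) and from the trend over all miRNAs.

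**Figure D2:**
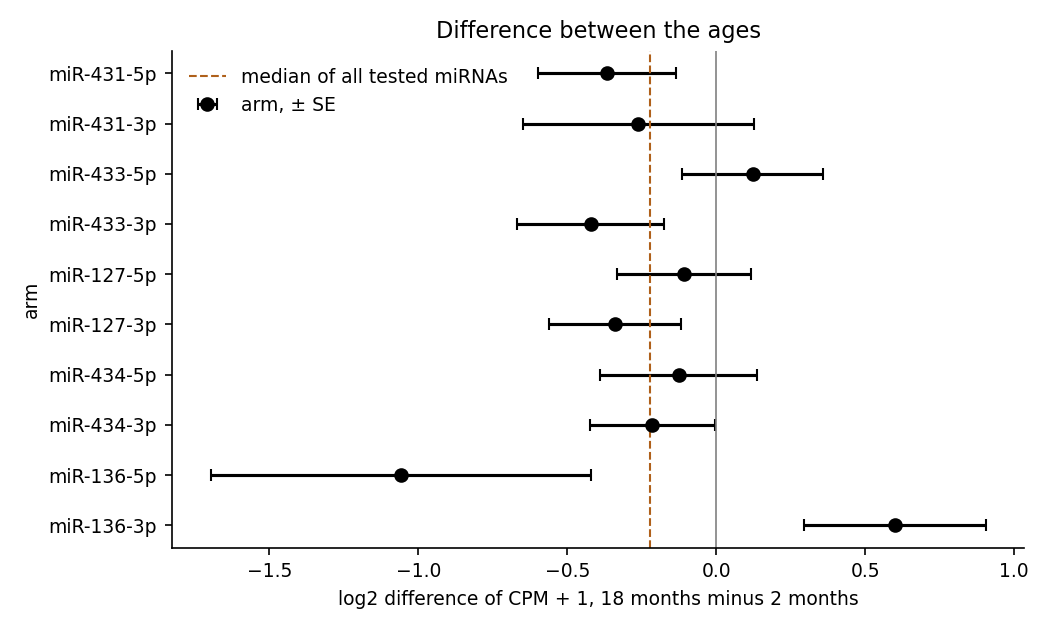
Log2 difference of each arm between 18 months and 2 months on the log2(CPM + 1) scale (points, with the SE of limma as bars), beside the median of all 456 tested miRNAs (dashed line, -0.22). Most arms lie near that line, miR-136-5p has the widest bar (-1.06, SE 0.64), and miR-136-3p lies furthest to the right (0.60).

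The rest of the Dlk1-Dio3 locus, which encodes a large miRNA cluster expressed from the maternal chromosome, was described from a list of 100 other names, of which 91 were in the table and 65 were tested. Their median log2 difference was -0.45. At an unadjusted p under 0.05, 18 were lower at 18 months (12.1% of all tested miRNAs were) and 1 was higher (4.17% of all tested miRNAs were), and none passed after adjustment. Both 18 months values lay below both 2 months values in 47 of the 65, beside 4 of the 10 anti-Rtl1 arms and 41.4% of all tested miRNAs, and these shares were not tested against each other. The largest differences among those past the threshold were those of miR-3072-3p (log2 1.32, 10.2 and 22.4 CPM at 2 months, 42.1 and 37.2 CPM at 18 months), miR-487b-3p (log2 -1.09, 3830 and 4022 CPM at 2 months, 1919 and 1777 CPM at 18 months) and miR-370-3p (log2 -1.07, 526 and 536 CPM at 2 months, 232 and 274 CPM at 18 months). The adjusted p in limma was 0.229, 0.0968 and 0.0968, in that order.

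Among the tested miRNAs outside the 10 arms, the summed level of the arms was followed most closely by miR-31-5p, with 599 and 858 CPM at 2 months against 527 and 518 CPM at 18 months. Its root mean square distance from the sum, over the 4 libraries and on centred log2(CPM + 1), was 0.026. The next were miR-872-5p, miR-325-5p, let-7f-1-3p and miR-138-5p, at 0.068 to 0.087. This order rested on miR-136-5p. For the sum without it the nearest were miR-361-3p (0.021), miR-181a-5p, let-7f-5p, miR-29b-1-5p and miR-331-5p, and none of the 10 names is in the Dlk1-Dio3 list.

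The 5 hairpins loaded their arms differently. The 3p arm dominated in miR-433, miR-127 and miR-434, and the 5p arm dominated in miR-431 and miR-136. Of the miR-127 reads, 97.4 and 97.9% were 3p at 2 months against 97.8 and 96.6% at 18 months. The 3p share of miR-433 was 96.3 and 94.8% at 2 months against 94.3 and 93.1% at 18 months. That of miR-434 was 86.3 and 87.5% at 2 months against 89.4 and 82.2% at 18 months. In miR-431 the 3p share was 22.9 and 13.4% at 2 months against 16.7 and 21.0% at 18 months. Its difference in means was 0.66 percentage points. That difference was 5.4 without the 2 months replicate 1 library and -4.1 without the 2 months replicate 2 library.

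In miR-136 the 3p share was 34.2 and 9.05% at 2 months against 41.1 and 42.5% at 18 months. The 95% Wilson intervals of these shares, which cover counting error only, were 33.9 to 34.6%, 8.93 to 9.18%, 40.7 to 41.5% and 42.2 to 42.8%. Both 18 months libraries lay above both 2 months libraries, by 20.2 percentage points in the means (21.6% ± 17.8 at 2 months against 41.8% ± 0.966 at 18 months, SD, n = 2 each). The exact permutation test, two-sided, gave p = 0.33, the smallest value that 2 libraries against 2 can give. Without the 2 months replicate 2 library the difference was 7.59 percentage points. Of the other hairpins only miR-433 did not overlap, which makes 2 of 5 beside 36.6% of the 142 hairpins with both arms tested, with a 3p share lower at 18 months by 1.84 percentage points (exact permutation p = 0.33).

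**Figure D3:**
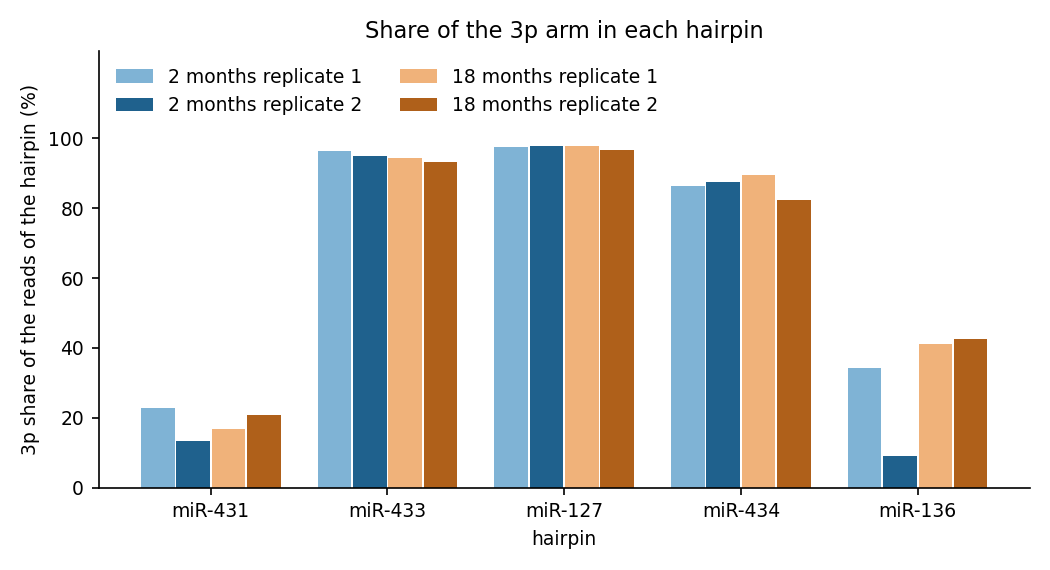
Share of the reads of each hairpin that came from its 3p arm, in percent, 1 bar per library. The miR-433, miR-127 and miR-434 bars lie between 82.2 and 97.9%, the miR-431 bars between 13.4 and 22.9%, and the miR-136 bars at 34.2, 9.05, 41.1 and 42.5%.

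The 5′ start sets the seed, and in most arms it was the reference start. Reads with that start made up 98.0 to 99.3% of miR-431-5p, 97.4 to 99.7% of miR-433-5p, 94.5 to 95.0% of miR-433-3p, 92.8 to 94.1% of miR-127-3p, 94.0 to 95.7% of miR-434-3p and 94.0 to 98.2% of miR-136-5p. The study scores each seed by 6mer seed viability, the mean viability of 3 mouse cell lines transfected with a small RNA carrying those bases at positions 2 to 7, so a low value marks a toxic seed. The reference starts of the 10 arms ranged from 16.2% (miR-127-5p) and 33.9% (miR-127-3p) over 49.7% (miR-431-5p) to 83.4% (miR-136-3p) and 85.6% (miR-434-3p).

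In 2 arms the reference start did not account for most reads in every library, and in a further 2 a shifted start held a steady minority. Their most abundant forms are shown with the seed of each start in capitals. The miR-431-3p form and the later of the miR-136-3p forms were chosen after their values were seen.
mmu-miR-127-5p, start moved 2 bases inward: gAAGCUCAgagggcucugauu
mmu-miR-127-5p, reference start: cUGAAGCUcagagggcucugauu
mmu-miR-136-3p, reference start: aUCAUCGUcucaaaugagucu
mmu-miR-136-3p, start moved 1 base outward: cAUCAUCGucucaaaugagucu
mmu-miR-136-3p, start moved 1 base inward: uCAUCGUCucaaaugagucuu
mmu-miR-434-5p, start moved 1 base outward: aGCUCGACucaugguuuga
mmu-miR-431-3p, start moved 2 bases outward: uGCAGGUCgucuugcagggcuu

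For miR-127-5p, the start 2 bases inside the reference made up 65.8 and 74.1% of reads at 2 months against 68.9 and 61.2% at 18 months. The reference start made up 28.2 and 20.6% at 2 months against 25.8 and 32.5% at 18 months. The shifted form was the major one in all 4 libraries, and its seed scored 54.6% viability against 16.2% for the reference seed. The shifted sequence shown stood at 93.4 and 112 CPM at 2 months against 88.0 and 80.1 CPM at 18 months, and the reference-start sequence at 29.8 and 25.2 CPM at 2 months against 18.2 and 33.0 CPM at 18 months.

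miR-136-3p was split over 3 starts with 3 seeds. The reference start (83.4% viability) held 42.1 and 49.98% of reads at 2 months against 54.8 and 49.2% at 18 months. The start 1 base outward (37.3% viability) held 37.4 and 25.4% at 2 months against 32.4 and 34.5% at 18 months. The start 1 base inward (30.2% viability) held 15.5 and 20.8% at 2 months against 9.80 and 12.3% at 18 months. The shares of the first 2 starts overlapped between the ages. The inward start had a lower share in both 18 months libraries than in both 2 months libraries. Weighted by reads, the seed viability of the arm was 56.5 and 59.6% at 2 months against 62.4 and 59.8% at 18 months. These values did not overlap (exact permutation p = 0.33), but that was not particular to this arm. Without overlap, seed viability was also higher at 18 months in miR-431-3p and over all named miRNAs. It was lower without overlap in miR-433-5p, miR-433-3p, miR-127-3p and miR-434-5p. The share of all tested miRNAs without overlap in seed viability was not counted.

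In miR-434-5p the start 1 base outward held 24.4 and 25.6% at 2 months against 23.7 and 23.2% at 18 months, and its seed scored 74.8% against 70.8% for the reference seed. In miR-431-3p starts 3 bases and 2 bases outward held 8.47 to 13.6% and 9.01 to 12.96% of reads, with seeds of 37.5 and 20.3% viability against 65.8% for the reference seed. A rare miR-136-5p start 2 bases outward (0.784 to 3.26% of reads, 87.8 to 131 CPM) carried the seed of lowest viability among starts of at least 1% of an arm, 3.7%.

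**Figure D4:**
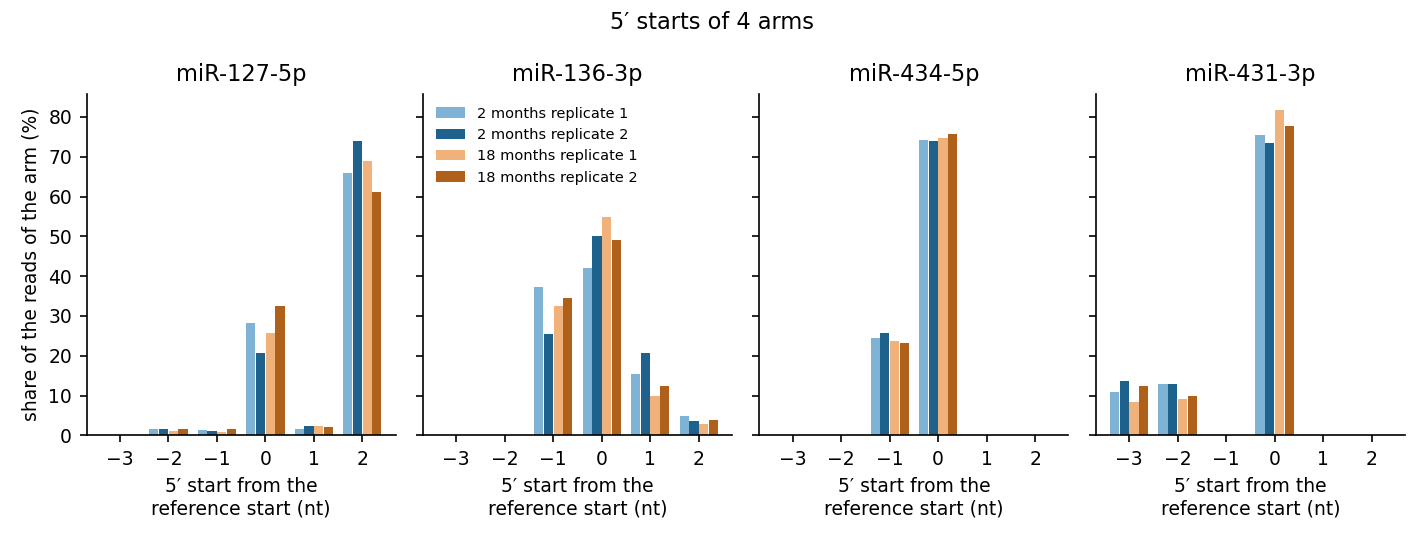
Share of the reads of 4 arms (percent) by 5′ start relative to the reference start, in nucleotides, with negative values outside it and starts under 1% of an arm left out. The miR-127-5p bars peak at 2 (61.2 to 74.1%), the miR-136-3p bars spread over -1, 0 and 1, and the other 2 arms have a main peak at 0.

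The share of reads with any shifted start was compared between the ages in all 10 arms by exact permutation tests. The groups did not overlap in 5 arms (exact permutation p = 0.33 in each, the smallest possible). Of 389 tested miRNAs with a reference sequence 33.7% did not overlap, with a read counted as shifted when its first 10 bases differed from the reference, and the same 5 arms did not overlap by that measure. The share was lower at 18 months in miR-431-3p (24.6 and 26.5% against 18.2 and 22.2%), miR-127-3p (7.21 and 6.94% against 5.91 and 6.35%) and miR-434-5p (25.7 and 26.1% against 25.4 and 24.2%). It was higher in miR-433-3p (5.01 and 5.06% against 5.49 and 5.44%) and miR-433-5p (0.546 and 0.334% against 2.60 and 1.88%). In miR-433-5p the shifted forms were rare, and none of them had a mean of 1 CPM.

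Weighted by their reads, the 10 arms had a mean seed viability of 58.1 and 62.0% at 2 months against 58.0 and 59.9% at 18 months. Over all named miRNAs it was 57.8 and 58.0% at 2 months against 58.1 and 58.5% at 18 months. The 10 arms were drawn more to both ends of the scale. Seeds under 50% viability held 45.0 and 31.2% of their reads at 2 months against 46.4 and 40.1% at 18 months, against 25.2 to 28.2% over all named miRNAs. Seeds of 70% or more held 50.4 and 65.9% at 2 months against 49.7 and 56.1% at 18 months, against 24.8 to 26.1% over all named miRNAs. miR-127-3p, the most abundant arm, falls in the low class, and miR-434-3p and the reference start of miR-136-5p fall in the high class. The values of the 2 months replicate 2 library include its high level of miR-136-5p and are not given without that arm.

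The 3′ ends differed more than the 5′ ends. miR-127-3p mostly ended before the reference end. Reads that kept the reference start and stopped 2 bases short made up 39.8 and 39.1% at 2 months against 38.5 and 38.8% at 18 months. Its most abundant sequence was this 20-nucleotide form, at 4250 and 4344 CPM at 2 months against 3767 and 2979 CPM at 18 months. It is shown because it is more abundant than the annotated form in all 4 libraries. Reads with the reference start and the reference end made up 19.7 to 21.4% of the arm.
mmu-miR-127-3p, most abundant sequence: uCGGAUCCgucugagcuugg
Added 3′ bases that did not match the hairpin were found on 19.0 and 18.6% of miR-127-3p reads at 2 months against on 17.1 and 17.1% at 18 months, a difference of -1.73 percentage points without overlap (exact permutation p = 0.33). The tailed share also did not overlap in miR-136-3p, where it was lower at 18 months, and in miR-434-5p and miR-136-5p, where it was higher. How often this occurs among all miRNAs was not counted. The share of miR-127-3p was among the highest of the group, beside miR-431-3p (12.1 to 19.1%).

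In miR-136-5p the library with the high level also had another make-up of 3′ ends. Reads with the reference start that ran 1 base past the reference end made up 12.2 and 34.7% at 2 months against 14.2 and 14.6% at 18 months. In CPM this form stood at 493 and 5796 at 2 months against 445 and 728 at 18 months. The form with the reference end stood at 2554 and 8730 CPM at 2 months against 2044 and 2722 CPM at 18 months.
mmu-miR-136-5p, reference end: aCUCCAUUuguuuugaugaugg
mmu-miR-136-5p, 1 base longer: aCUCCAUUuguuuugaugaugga
The added base is that of the hairpin. Between the 2 months libraries, the longer form was 11.7 times higher in replicate 2, the form with the reference end 3.42 times, and the form 1 base shorter 1.87 times. All reads past the reference end made up 15.4 and 38.3% at 2 months against 17.3 and 19.4% at 18 months. The difference between the ages in that share was -8.46 percentage points (exact permutation p = 1), and without the 2 months replicate 2 library it was 2.99. Over 869 miRNA names, reads longer than the reference made up 15.9 and 17.5% at 2 months against 16.4 and 16.8% at 18 months, and 17.1% in the 2 months replicate 2 library without miR-136-5p.

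**Figure D5:**
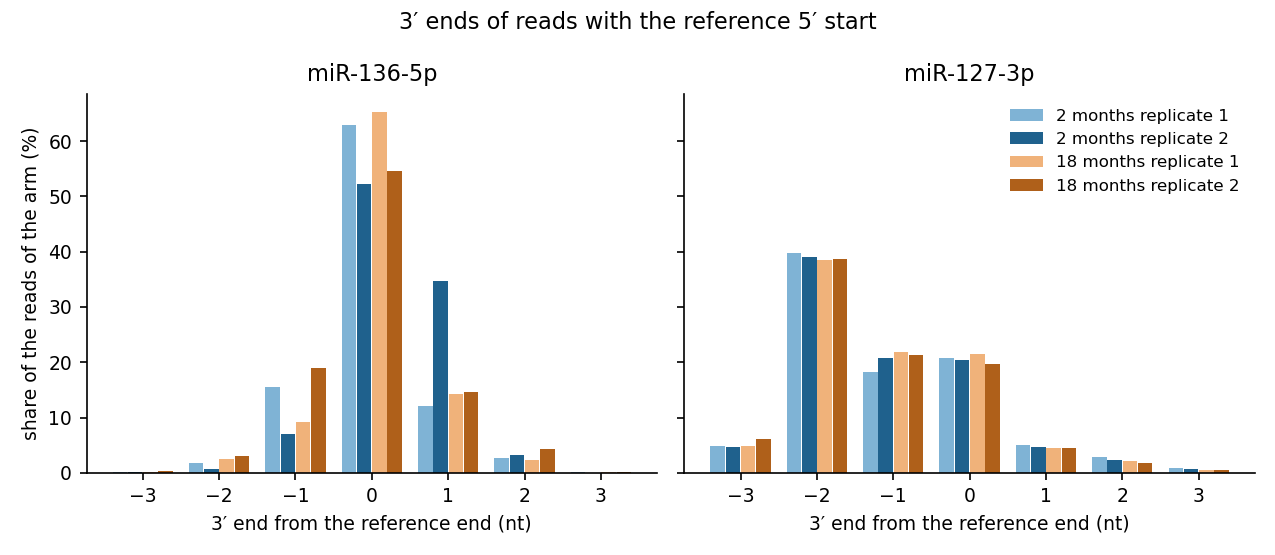
Share of the reads of miR-136-5p (left) and miR-127-3p (right), in percent, by 3′ end relative to the reference end, in nucleotides, for reads with the reference 5′ start. For miR-136-5p the 1-base longer form holds 34.7% in 2 months replicate 2 and 12.2 to 14.6% elsewhere, and for miR-127-3p the form 2 bases short holds 38.5 to 39.8% in every library.

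Of the 1502 anti-Rtl1 sequences, 348 had a mean of at least 1 CPM and were tested among 14286 sequences, and they held 98.9% of the reads of the arms. At an unadjusted p under 0.05 in limma, 19 were lower at 18 months, or 5.46% of the tested members, against 4.23% of all tested sequences. Another 6 were higher, or 1.72%, against 5.87% of all tested sequences. None passed a limma adjusted p under 0.05, which 0.042% of all tested sequences did, and edgeR also called none after adjustment while it called 30 at the unadjusted threshold. The share of all tested sequences that edgeR called was not counted. The sequences lower at 18 months were 11 of miR-127-3p, 4 of miR-136-5p, 2 of miR-434-5p and 1 each of miR-431-5p and miR-433-3p. All 6 higher ones were forms of miR-136-3p.

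Among the sequences past the unadjusted threshold whose groups did not overlap, the 3 largest falls in mean CPM were minor forms of miR-127-3p. They are shown with 3′ bases that do not match the hairpin described in words.
mmu-miR-127-3p, full length with AU added: uCGGAUCCgucugagcuuggcuau
mmu-miR-127-3p, start moved 2 bases outward: cAUCGGAUccgucugagcuugg
mmu-miR-127-3p, shortened with A as its last base: uCGGAUCCgucugagcuuga
The form with AU added stood at 159 and 123 CPM at 2 months against 99.2 and 71.7 CPM at 18 months (log2 -0.72, SE 0.31, limma adjusted p = 0.486). The form with the outward start stood at 108 and 91.0 CPM at 2 months against 58.3 and 53.0 CPM at 18 months (log2 -0.82, SE 0.30, limma adjusted p = 0.410). The shortened form stood at 59.6 and 58.7 CPM at 2 months against 29.3 and 37.1 CPM at 18 months (log2 -0.82, SE 0.30, limma adjusted p = 0.426). The major form of the arm differed less, with a log2 difference of -0.36 (SE 0.25).

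By the same limits, the 3 largest rises were forms of miR-136-3p. The most abundant sequence of the arm, the 21-nucleotide form with the reference start shown above, stood at 623 and 548 CPM at 2 months against 1013 and 1455 CPM at 18 months. Both 18 months values exceeded both 2 months values, with a log2 difference of 1.05 (SE 0.29, unadjusted p = 0.00507, limma adjusted p = 0.303). The other 2 were less abundant.
mmu-miR-136-3p, start moved 1 base inward: uCAUCGUCucaaaugagucu
mmu-miR-136-3p, A as its last base: aUCAUCGUcucaaaugaguca
The first stood at 34.1 and 30.2 CPM at 2 months against 62.4 and 47.8 CPM at 18 months (log2 0.75, limma adjusted p = 0.467). The second stood at 4.29 and 1.67 CPM at 2 months against 8.98 and 5.40 CPM at 18 months (log2 1.09, limma adjusted p = 0.446). Reads of miR-136-3p that stopped short of the reference end made up 71.4 and 62.6% at 2 months against 84.6 and 78.0% at 18 months (exact permutation p = 0.33, the smallest possible). Among the other arms this share was also higher at 18 months without overlap in miR-431-5p and miR-127-5p. How often this occurs among all miRNAs was not counted.

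Without the 2 months replicate 1 library, the 1-base longer form of miR-136-5p shown above differed by -3.37 on the log2 scale. A tailed form of that arm differed by -2.49 and a form with an internal mismatch by -2.60. These 3 were chosen here after their values were seen. They are forms of 1 miRNA and not separate results. In that fit the 2 months group is the single replicate 2 library, in which miR-136-5p was high.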

How the data were processed

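Small RNAs bound to Ago were sequenced from brain (cortex with hippocampus) of mice aged 2 and 18 months, with 2 libraries each. The authors de-multiplexed and trimmed the reads (Trim Galore is named in the submitters' processing notes), left out rare ones, annotated the others by BLAST against mouse small RNA lists and deposited CPM per sequence and library. The authors also deposited a score for each sequence, its 6mer seed viability from a screen in 3 mouse cell lines. The deposited sum over the libraries, a signal column, served only to find what 1 read was worth. A genome build is not given in the sources used here.

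Whole reads were recovered for 100% of nonzero values (within 0.0006 CPM plus 1e-06 of the value), and 3 reads were worth 0.263 to 0.331 CPM. limma 3.58.1 with an intensity trend was fitted, two-sided, to log2(CPM + 1) of 456 miRNAs (mean of at least 10 CPM) and 14286 sequences (mean of at least 1 CPM), with age as the only term, and p-values were adjusted by Benjamini-Hochberg over all tested features. Shares were compared by exact permutation tests. The alternatives used edgeR 4.0.16 and DESeq2 1.42.0 on recovered reads, other pseudocounts, filters and scaling, a replicate block, and each library left out. Reads were placed on the reverse complement of the Rtl1 transcript (GENCODE, GRCm38), with up to 3 unmatched 3′ bases counted as a tail. The limma and edgeR fits were also run on simulated counts with the same dispersion for every feature. That is a check of the code and not of how the fits perform on these data.

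The members and lists were chosen with earlier results of these data known. Named were all arms, the most abundant sequence of each, the most abundant with another start at 5% or more of its arm, the 3 largest rises and falls past the threshold without overlap, the 5 miRNAs nearest in pattern to the summed arms, and at most 3 other miRNAs of the locus.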

Additional observations from a re-analysis of the deposited data

Results flagged for a closer look

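Reads that matched an anti-Rtl1 hairpin but carried no miRNA name entered none of the comparisons and showed a signal in every library. Their mean level was 6.57 CPM for miR-431, 11.6 CPM for miR-433, 139 CPM for miR-127, 109 CPM for miR-434 and 133 CPM for miR-136. They made up 1.0 to 2.5% of the reads of a hairpin. In miR-136 they stood at 90.6 and 251 CPM at 2 months against 76.8 and 113 CPM at 18 months. As a share of the hairpin they made up 1.45 and 1.35% at 2 months against 1.42 and 1.29% at 18 months. The high CPM of the 2 months replicate 2 library thus followed the level of the hairpin and is no separate observation. Of 240 such miR-136 sequences, 24 occurred unaltered in the hairpin region, as did 21 of 280 for miR-127. Groups of 2 libraries are too small for an outlier test.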

How the results depend on the processing

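The number of arms past the unadjusted threshold was 0, and it was 1 after rescaling by the median of ratios, 1 in edgeR, 2 in DESeq2, 1 with reads of the reference 5′ end alone and 0 to 2 with single libraries left out. None passed after adjustment in any alternative. For sequences the number was 25, and it was 11 with a minimum of 10 CPM and 22 to 40 with single libraries left out. With the replicate number as a block, 0 arms and 32 sequences passed. The shares of all tested miRNAs and sequences past the threshold in these alternatives were not counted. The replicate number does not show whether same-numbered libraries were prepared together, and the correlation of their deviations (0.180) cannot decide it.

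Of 148 alternative values of the log2 differences of single arms, 14 had the other sign. For miR-127-5p they were 0.10 after rescaling, 0.11 in edgeR, 0.10 in DESeq2, 0.16 with the reference 5′ end and 0.019 and 0.030 without 2 months or 18 months replicate 1. For miR-434-5p they were 0.086 after rescaling, 0.12 in edgeR, 0.11 in DESeq2 and 0.17 without 18 months replicate 1. For miR-434-3p they were 0.017 in edgeR and 0.0065 in DESeq2. With single libraries left out the values ran from -0.83 to 0.31 for miR-431-3p, from -0.044 to 0.29 for miR-433-5p, from -0.25 to 0.030 for miR-127-5p and from -0.42 to 0.17 for miR-434-5p. The cause was not tested. Of 60 alternative values of the shifted-start shares, 3 moved by more than the spread between libraries, all in the miR-433 arms (0 and 0.510 or 0.369 percentage points for 5p and 3p, against 1.80 and 0.429). Arm shares moved by less than it in all 30 alternative values. For both kinds of share, leaving out 1 library of a pair moves a mean by less than the spread of that pair. Such values could not count as moved. The difference in 3p share of miR-136 still fell from 20.2 to 7.59 percentage points without 2 months replicate 2. That of miR-431 ran from -4.1 to 5.4 with single libraries left out. The summed CPM kept its direction in 7 of 7 alternatives, from -14754 to -2540. Both 18 months sums lay below both 2 months sums, so leaving out a single library could not reverse that direction. With 2 libraries per age, the exact permutation test used for the shares cannot reach p under 0.05.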

Other observations

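The counted tails at the 3′ end differed between the arms. A tail was counted only where its bases differed from the hairpin. The base after the reference end is U in miR-433-3p and A in miR-136-5p, so such an added base was not counted there. On miR-433-3p, reads with the reference start that ran 1 base past the reference end made up 3.14 to 3.45%. The shares of A and U are thus not strictly comparable within or between arms. Tails of A alone held 6.86 to 7.36% of miR-127-3p reads and tails of U alone 6.27 to 7.76%, so both were about as frequent. On miR-433-3p counted tails of A (5.23 to 6.61%) were more frequent than counted tails of U (0.736 to 1.35%) in every library. On miR-136-5p counted tails of A (3.46 to 5.55%) were more frequent than those of U (0.212 to 0.582%). On miR-136-3p the order was inverted, with 2.62 to 4.39% of reads carrying U and 0.560 to 1.28% carrying A. On miR-434-3p both kinds stayed under 1% (0.683 to 0.799% for A and 0.665 to 0.966% for U). The counted tails of the 2 arms of the miR-136 hairpin thus differed in the same 4 libraries.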
